A study of Homo sapiens with 6 samples.

Results

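The mRNA levels of 34 genes for the synthesis of cholesterol and fatty acids were followed in A549 cells, a cultured line from a human lung adenocarcinoma, after knockdown of METTL3. The genes were taken by symbol from the 57781 rows of the deposited count table: 18 enzymes of the sterol branch (7 of the mevalonate pathway and 11 that act later), 8 enzymes of the fatty acid branch, 6 genes of the regulatory machinery, and STARD4 and LPIN1, a sterol carrier and a phosphatidate phosphatase. METTL3 is the catalytic subunit of the enzyme complex that writes N6-methyladenosine (m6A) onto mRNA. The cells carried either a vector control (genotype labelled WT, 3 libraries) or short hairpin RNA against METTL3 (shMETTL3, 3 libraries), and all were grown in DMEM with fetal bovine serum. The hairpins were expressed from a plasmid, and neither the hairpin sequence nor whether the lines were clones or pools is stated in the sources used here. The count columns number the shMETTL3 libraries in a way that could mean 3 hairpins or 3 replicates of 1 hairpin, which is not stated, so their spread may include differences between hairpins. They are called replicates here, as in the labels. The labels do not say that libraries came from separate cultures, so that the p-values measure the spread between these libraries only.

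Cells make cholesterol from acetyl-CoA through mevalonate and squalene, and they make fatty acids by extending acetyl-CoA in the cytosol. Both branches are controlled by the SREBP transcription factors, encoded by SREBF1 and SREBF2, which are made as membrane proteins of the endoplasmic reticulum. When sterols are scarce, SCAP carries the SREBPs to the Golgi, where proteases release the active factor. When sterols are plentiful, INSIG proteins hold SCAP back. SREBPs bind sterol regulatory elements in promoters, usually beside a CCAAT box for the factor NF-Y or a GC box for SP1.

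Most of the 34 genes were lower after METTL3 knockdown. All 34 passed the filter on low counts, with 28 to 25964 counts in a library, and 32 were changed, 29 lower and 3 higher (edgeR quasi-likelihood test, Benjamini-Hochberg adjusted p below 0.05). These shares are to be read against a background of many changes, since 66.6% of the 15125 tested genes were changed, 32.9% lower and 33.7% higher. Lower members made up 85.3% of the list. A log2 fold change of -1 or below was found for 22 members, or 64.7%, against 7.42% of all tested genes. The median log2 fold change was -1.31 over the members and 0.0022 over all tested genes, and 20 members lay below -1.22, the 5th percentile of all tested genes. The list was chosen with earlier results of these data known, so that its distance from all tested genes is not a test. In a bulk measurement like this one, fewer cells of one kind and less RNA per cell cannot be told apart.

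**Figure D1:**
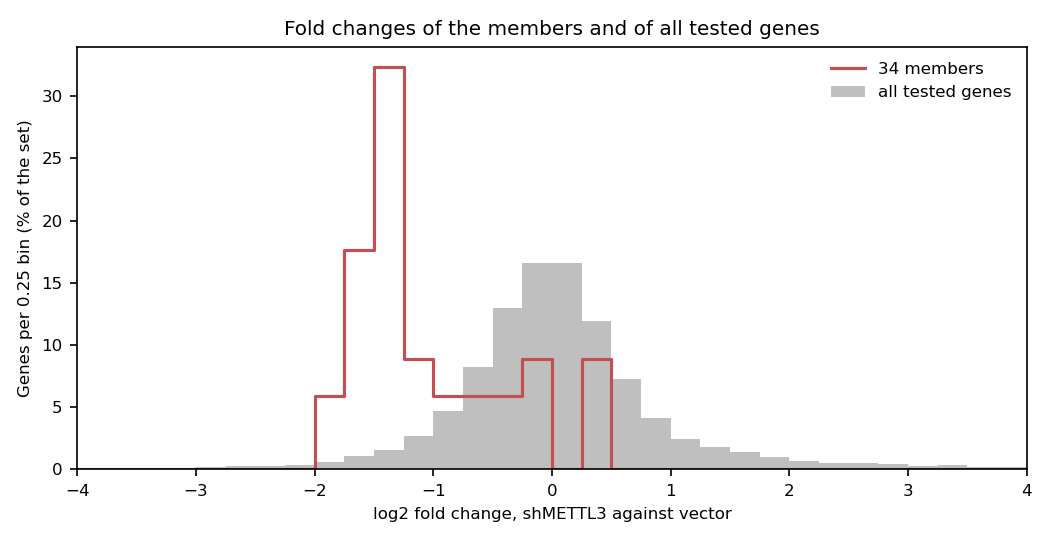
Distribution of log2 fold changes (shMETTL3 against vector, horizontal axis) as a percentage of each set per bin of 0.25, for the 15125 tested genes (grey bars) and the 34 members (red line). The members gather between -2 and -1, while all tested genes centre on 0.

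Library totals ran from 14931426 to 19108928 counts. METTL3 itself had 49.4, 50.6 and 49.5 CPM (counts relative to library size, scaled between libraries by the TMM method of edgeR) in vector replicates 1 to 3 and 18.9, 19.9 and 19.3 CPM in shMETTL3 replicates 1 to 3, and so stood at 38.8% of the vector level. All 9 epithelial and A549 markers examined were detected, and 7 were lower and 2 higher (KRT7 and AKR1C1). EPCAM and KRT19 were at 15.02% and 18.8% of the vector level, below any of the 34 genes. The sum of the 9, carried mostly by ALDH1A1 and KRT8, was 29371 to 30833 CPM in the vector libraries and 18631 to 19252 CPM in the shMETTL3 libraries. Summed markers of other cell types were low, and every shMETTL3 sum was above every vector sum. Leukocyte markers summed to 0.334 to 1.04 CPM in the vector and 5.94 to 7.12 CPM in the shMETTL3 libraries, endothelial markers to 0 to 0.123 and 1.40 to 1.95 CPM, fibroblast markers to 2.04 to 3.19 and 4.28 to 6.42 CPM, and alveolar type 2 markers to 1.65 to 2.23 and 2.38 to 3.04 CPM. CD14, CDH5, THY1 and SFTPB passed the test as higher, with PTPRC, CD3E, CD68, VWF, KDR and SFTPA1 at or under 3 counts in every library. The part of these markers in the results was not tested. Scaling by library size alone, in place of TMM, shifted the median over all tested genes by 0.17 on the log2 scale and made 3509 genes lower and 6750 higher, against 4977 and 5090. It is given below where it ended a call or moved a value by more than 1.5 times.

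The promoters show what these genes share in sequence. Of the 34 members, 30 were found in the RefSeq promoter table (build GRCh38.p14), and the 250 bases before each start were searched on both strands. ACAT2, SQLE, FASN and FDFT1 were not among them. A CCAAT box (CCAAT) lay in the promoters of 20 of 30 members, or 66.7%, against 37% of all 27305 genes in the table and 40.9% of the 10635 tested genes in it. Its holders were 18 of 25 members that were lower and 2 of the other 5. A GC box (GGGCGG) was found for 28 of 30 members, or 93.3%, against 46.2% of all genes and 73.7% of the tested genes. It was held by 25 of 25 members that were lower and 3 of the other 5. The SREBP site in the form TCACNCCAC occurred in 1 member promoter, that of SREBF2, and in 1.14% of tested genes. An E-box (TCACGTG), to which SREBPs can also bind, occurred for INSIG1 and SC5D, and in 6.43% of tested genes. Matches on opposite strands may overlap, as they do for a pair of CCAAT boxes in NSDHL and for both strands of the E-box in INSIG1. A match describes these letters only.

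The stretches below are shown because they hold the single TCACNCCAC match, a regulator that fell most, strongly lowered mevalonate enzymes with their CCAAT boxes, and the enzyme that rose. Capitals mark TCACNCCAC, CCAAT boxes on either strand (ATTGG on the opposite one) and the E-box. Each reads 5′ to 3′ along the gene's own strand.
SREBF2, chr22:41832962-41833013, plus strand: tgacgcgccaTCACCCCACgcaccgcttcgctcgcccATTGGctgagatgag
INSIG1, chr7:155297698-155297839, plus strand: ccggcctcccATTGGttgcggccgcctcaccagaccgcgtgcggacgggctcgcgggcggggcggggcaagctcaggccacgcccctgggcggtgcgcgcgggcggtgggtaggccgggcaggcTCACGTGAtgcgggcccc
MVD, chr16:88663162-88663260, minus strand: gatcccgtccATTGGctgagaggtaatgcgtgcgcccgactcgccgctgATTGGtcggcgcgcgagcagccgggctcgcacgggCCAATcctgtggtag
HMGCS1, chr5:43313498-43313577, minus strand: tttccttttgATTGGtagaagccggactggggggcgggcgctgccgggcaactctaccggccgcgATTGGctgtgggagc
NSDHL, chrX:152830825-152830993, plus strand: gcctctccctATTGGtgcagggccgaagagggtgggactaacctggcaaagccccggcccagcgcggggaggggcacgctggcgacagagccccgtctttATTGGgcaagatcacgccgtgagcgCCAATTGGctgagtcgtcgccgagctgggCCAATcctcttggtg

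In the SREBF2 stretch, TCACCCCAC starts 133 bases before the transcription start and an inverted CCAAT box 106 bases before it. MVD and HMGCS1 held 3 and 2 CCAAT boxes. NSDHL held 5, as many as MVK, although its mRNA was higher and that of MVK lower in the shMETTL3 libraries. The box was thus found among members of both directions.

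All 7 mevalonate enzymes fell, with 29.9% to 63.1% of the vector level left and a median log2 fold change of -1.55. MVD, the decarboxylase that yields the isoprene unit, had 60.2, 59.9 and 64.2 CPM in vector replicates 1 to 3 and 16.99, 18.3 and 19.8 CPM in shMETTL3 replicates 1 to 3, a log2 fold change of -1.75 (standard error 0.070, adjusted p = 5.48e-18). The groups stood far apart, since the highest shMETTL3 library was below every vector library. HMGCS1, which joins acetyl-CoA units into the precursor of mevalonate, was next, with 132, 132 and 124 CPM in the vector libraries and 41.4, 40.6 and 37.8 CPM in the shMETTL3 libraries, and a log2 fold change of -1.69 (standard error 0.057, adjusted p = 1.21e-19). MVK, the kinase of mevalonate, had a similar log2 fold change of -1.68 (standard error 0.10), with the widest spread among the shMETTL3 libraries, at 7.46, 8.38 and 11.2 CPM. Without shMETTL3 replicate 3 it was at -1.85.

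IDI1, the isomerase of the isoprene unit, and ACAT2, the cytosolic acetyl-CoA acetyltransferase at the start of the pathway, had log2 fold changes of -1.55 and -1.49. FDPS, which makes farnesyl diphosphate, lay at 111, 108 and 112 CPM in the vector libraries and at 42.4, 43.1 and 44.5 CPM in the shMETTL3 libraries, with a log2 fold change of -1.35 (standard error 0.055, adjusted p = 7.14e-18). PMVK, the kinase between MVK and MVD, changed least in this pathway. It had 29.8, 34.1 and 29.6 CPM in the vector libraries and 20.04, 19.4 and 19.6 CPM in the shMETTL3 libraries, again without overlap, and a log2 fold change of -0.66 (standard error 0.077, adjusted p = 1.84e-08). The pathway was thus lowered from its entry to farnesyl diphosphate, with PMVK at less than a log2 unit.

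Of the 11 enzymes from squalene to cholesterol, 9 were lower, 1 was higher and 1 did not pass the test. DHCR7, the reductase of the last step of one route, was at 223, 238 and 262 CPM in the vector libraries and at 86.9, 88.8 and 89.6 CPM in the shMETTL3 libraries, a log2 fold change of -1.45 (standard error 0.057, adjusted p = 3.71e-18). HSD17B7, a keto-reductase of the sterol demethylation complex, was at 15.8, 16.4 and 18.02 CPM against 6.47, 6.03 and 6.55 CPM, a log2 fold change of -1.40 (standard error 0.11, adjusted p = 5.05e-12). Neither gene overlapped between groups. FDFT1, SQLE and LSS, which make squalene, oxidise it and close its rings to lanosterol, had log2 fold changes of -1.33, -1.31 and -1.23, close to one another. Those of MSMO1, the methyl oxidase listed under its current symbol, and TM7SF2, a sterol reductase, were -1.29 and -1.07. CYP51A1, the cytochrome P450 that demethylates lanosterol, had a log2 fold change of -1.32 (standard error 0.20, adjusted p = 1.30e-06) on only 28 to 78 counts per library. Other annotated genes share 74.1% of its exon bases in GENCODE, so that its level and fold change are uncertain.

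NSDHL and EBP, both on chromosome X, and SC5D had the highest log2 fold changes of the sterol enzymes. NSDHL, the dehydrogenase of the same demethylation complex (GRCh37 chromosome X, 151999511 to 152038273), was at 29.5, 29.6 and 36.0 CPM in the vector libraries and at 41.2, 40.0 and 40.0 CPM in the shMETTL3 libraries. It was the only sterol enzyme that rose, by a log2 fold change of 0.35 (standard error 0.073, adjusted p = 0.000147), and by 0.53 with scaling by library size alone. EBP, the sterol isomerase (chromosome X, 48380187 to 48387104), was at 63.2, 64.1 and 67.3 CPM against 52.7, 55.3 and 56.9 CPM, with a log2 fold change of -0.24 (standard error 0.058, adjusted p = 0.000653). Its call was lost with scaling by library size alone, at -0.065 (adjusted p = 0.32). In GENCODE, 36.4% of its exon bases are shared with a gene on the same strand, so that its level and fold change are uncertain too. The 446 tested genes placed on chromosome X had a median log2 fold change of 0.74, with 365 higher and 24 lower, against -0.0036 for the 13213 genes of the numbered chromosomes, and the part of this difference in the values of NSDHL and EBP was not tested. Without these 2 genes, 15 of 16 sterol branch members were lower, with a median of -1.34. SC5D, a desaturase on chromosome 11, did not pass the test. Its levels were 27.2, 23.0 and 22.1 CPM in the vector libraries and 22.3, 23.7 and 21.2 CPM in the shMETTL3 libraries, which overlapped, with a log2 fold change of -0.10 (standard error 0.083, adjusted p = 0.273). Library size alone as the scaling gave 0.069, and values ran from -0.17 to -0.013 when 1 library was left out.

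**Figure D2:**
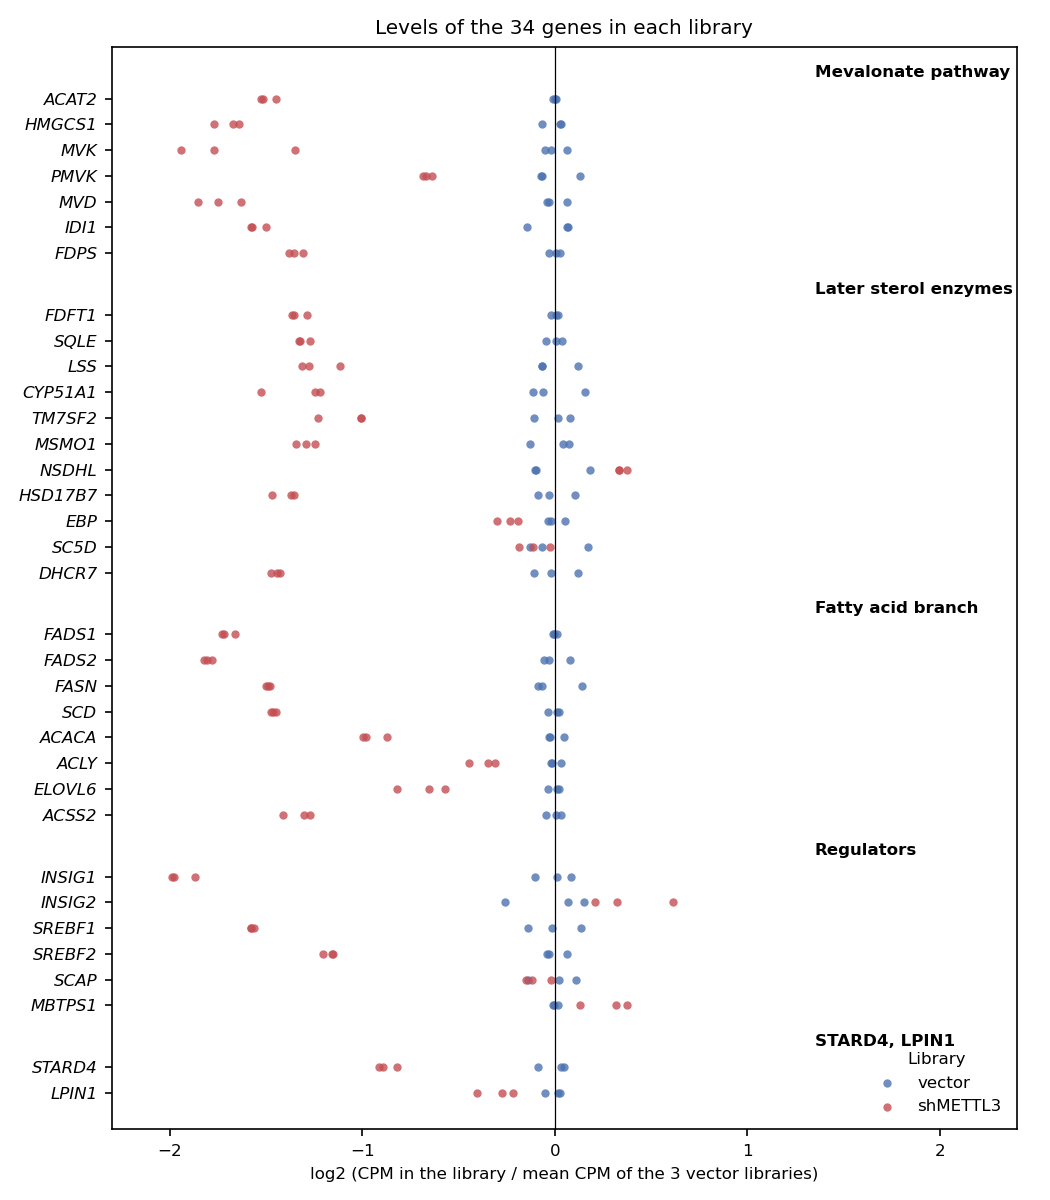
Level of each of the 34 genes in each library, as log2 of its TMM-scaled CPM over the mean of the 3 vector libraries (horizontal axis), with genes in the order of the pathways. Blue points are vector and red points shMETTL3 libraries. The red points of NSDHL, INSIG2 and MBTPS1 lie above all of their blue points, and those of SC5D and SCAP overlap with the blue points.

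In the fatty acid branch, all 8 genes were lower, with a median log2 fold change of -1.39 and 28.7% to 77.6% of the vector level left. The largest falls were those of the polyunsaturated fatty acid desaturases. FADS2 had 467, 476 and 513 CPM in vector replicates 1 to 3 and 137, 142 and 139 CPM in shMETTL3 replicates 1 to 3, a log2 fold change of -1.80 (standard error 0.052, adjusted p = 3.29e-21). FADS1 had 1005, 999 and 1016 CPM in the vector libraries and 304, 318 and 306 CPM in the shMETTL3 libraries, a log2 fold change of -1.70 (standard error 0.049, adjusted p = 3.35e-21). Replicates of either gene differed little beside the distance between groups. The genes overlap on chromosome 11, where FADS1 lies within the span of FADS2 on the opposite strand (GRCh37, FADS1 from 61567099 to 61596790 on the minus strand, FADS2 from 61560452 to 61634826 on the plus strand), and 5.57% of the exon bases of FADS1 are shared with other genes, FADS2 among them.

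FASN, the synthase that builds palmitate, was at 393, 387 and 453 CPM in the vector libraries and at 148, 146 and 146 CPM in the shMETTL3 libraries (log2 fold change -1.49, standard error 0.057, adjusted p = 1.86e-18). SCD, which desaturates stearate to oleate, fell alongside it with a log2 fold change of -1.46, from 1447, 1493 and 1504 CPM in the vector libraries to 533, 536 and 543 CPM in the shMETTL3 libraries. ACACA, the carboxylase that makes malonyl-CoA, was lowered less, from 263, 262 and 277 CPM to 135, 146 and 134 CPM, with a log2 fold change of -0.95 (standard error 0.052, adjusted p = 4.54e-15). The groups did not overlap for any of the 3 genes. ELOVL6, an elongase of palmitate, was at 33.8, 32.5 and 33.5 CPM against 22.4, 21.1 and 18.8 CPM, a log2 fold change of -0.67 (standard error 0.075, adjusted p = 9.83e-09).

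Acetyl-CoA can be supplied to the cytosol from citrate or from acetate, and the genes of these routes were lowered to different levels. ACSS2, the synthetase that uses acetate, had a log2 fold change of -1.33 (standard error 0.058, adjusted p = 2.71e-17) and was at 39.9% of the vector level. ACLY, which cleaves citrate, was at 454, 456 and 470 CPM in the vector libraries and at 339, 371 and 361 CPM in the shMETTL3 libraries, which left 77.6%. The log2 fold change came to -0.37 (standard error 0.050, adjusted p = 3.55e-07), and -0.19 (adjusted p = 0.00125) with scaling by library size alone. ACLY was lower in 3 of 3 libraries under TMM, but by less than any other gene of the branch.

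The regulators divided. SREBF1, SREBF2 and INSIG1, which are also known SREBP target genes, were lower, INSIG2 and MBTPS1 were higher, and SCAP did not pass the test. INSIG1 had the lowest log2 fold change of all 34 members, at -1.95 (standard error 0.064, adjusted p = 6.43e-20), with 101, 106 and 93.3 CPM in vector replicates 1 to 3 and 25.4, 25.3 and 27.4 CPM in shMETTL3 replicates 1 to 3. Only 268 tested genes had a lower one. Its paralog INSIG2, which is not under the same sterol control, was at 14.3, 13.5 and 10.7 CPM in the vector libraries and at 19.6, 16.1 and 14.8 CPM in the shMETTL3 libraries. This gave a rise of 0.39 on the log2 scale (standard error 0.11, adjusted p = 0.00264), which was at 0.27 (adjusted p = 0.0498) without shMETTL3 replicate 1.

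SREBF1, the factor tied most to fatty acid genes, was at 222, 242 and 268 CPM in the vector libraries and at 81.7, 81.8 and 82.7 CPM in the shMETTL3 libraries, a log2 fold change of -1.57 (standard error 0.060, adjusted p = 1.61e-18). SREBF2, the factor tied most to sterol genes and the holder of the TCACNCCAC match shown above, was at 211, 212 and 227 CPM against 97.1, 94.2 and 97.6 CPM, a log2 fold change of -1.17 (standard error 0.052, adjusted p = 4.36e-17). Gene counts do not separate the isoforms of SREBF1, and mRNA levels say nothing of how much SREBP was cleaved. MBTPS1, the S1P protease that makes the first cut in SREBPs, was higher, at 128, 151 and 146 CPM against 116, 116 and 118 CPM, with a log2 fold change of 0.28 (standard error 0.057, adjusted p = 0.000114), or 0.45 with scaling by library size alone. SCAP had 47.2, 52.9 and 56.1 CPM in the vector libraries and 47.0, 47.9 and 51.4 CPM in the shMETTL3 libraries, which overlapped. Its log2 fold change of -0.095 (standard error 0.066, adjusted p = 0.207) passed the test only without vector replicate 1, at -0.17 (adjusted p = 0.0297), and turned to 0.080 with scaling by library size alone.

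STARD4, the sterol carrier, had a log2 fold change of -0.87 (standard error 0.078, adjusted p = 1.53e-10), with 28.4, 28.8 and 26.2 CPM against 15.7, 14.96 and 14.8 CPM. LPIN1, which dephosphorylates phosphatidate on the way to triglyceride, had one of -0.30 (standard error 0.075, adjusted p = 0.00103), with 28.1, 28.4 and 26.8 CPM against 23.9, 21.0 and 23.0 CPM. With scaling by library size alone the call of LPIN1 was lost, at -0.12 (adjusted p = 0.168).

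The branches can be set side by side. In the sterol branch, 16 of 18 genes were lower and 1 was higher, with a median log2 fold change of -1.33. In the fatty acid branch the median was -1.39, and among the 6 regulators, of which 3 were lower and 2 higher, it was -0.63. The CPM of the 18 sterol branch genes summed to 1764, 1770 and 1769 in the vector libraries and to 738, 745 and 753 in the shMETTL3 libraries, which is 41.7% to 42.6% of the vector mean. For the 8 fatty acid genes the sums were 4164, 4212 and 4374 CPM and 1657, 1724 and 1691 CPM, or 39.0% to 40.6% of the vector mean, and for the regulators 53.7% to 56.5% of it was left. These sums follow the most abundant genes. The difference between branches was not tested.

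Levels can be compared between genes only per length of transcript. Per kilobase of the canonical transcript, SCD stood highest of the 34 genes in the vector libraries, at 282 ± 5.82 CPM per kb (SD, n = 3), followed by FADS1 at 231 ± 1.95, FDFT1 at 194 ± 2.49, FADS2 at 157 ± 7.82 and ACLY at 107 ± 2.08 CPM per kb. SCD was at rank 207 of the 13533 tested genes with a length. In the shMETTL3 libraries SCD was still highest, at 102 ± 1.04 CPM per kb, but ACLY now came next, at 83.2 ± 3.89, before FDFT1 at 76.9 ± 2.22 and FADS1 at 70.9 ± 1.74 CPM per kb. INSIG1 stood at 34.4 ± 2.23 and INSIG2 at 3.599 ± 0.521 CPM per kb in the vector libraries, and at 8.95 ± 0.406 and 4.72 ± 0.703 CPM per kb in the shMETTL3 libraries. CYP51A1, whose level is uncertain, stood lowest in the vector libraries, at 1.33 ± 0.136 CPM per kb. Among other genes near the low end, ELOVL6 and LPIN1 did not differ beyond their spread there, at 5.07 ± 0.105 and 5.10 ± 0.151 CPM per kb. Nor did INSIG2 and SC5D, the latter at 3.52 ± 0.397 CPM per kb.

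**Figure D3:**
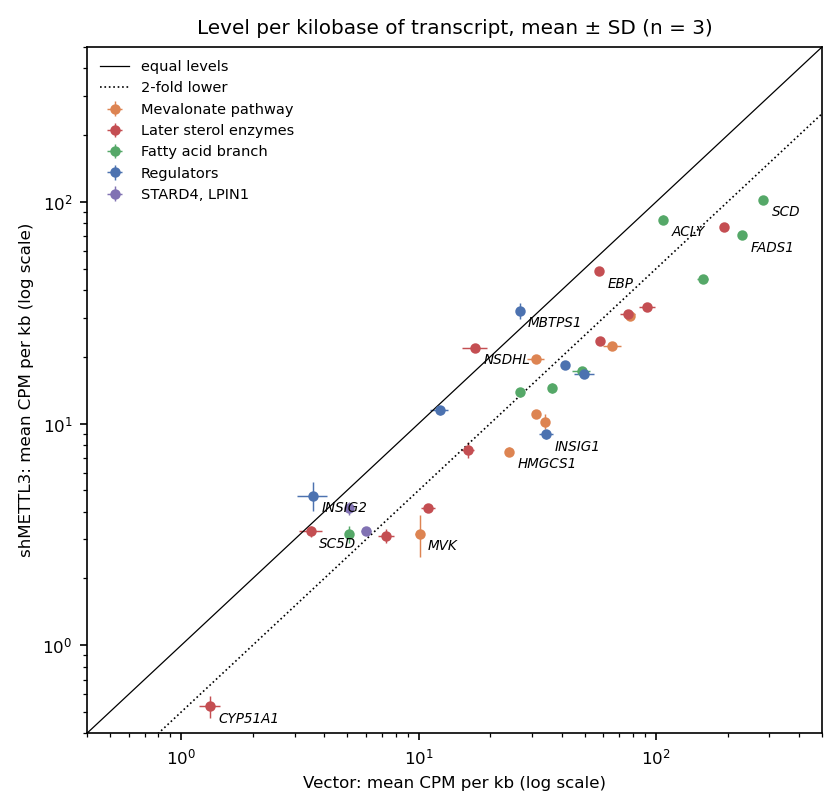
Mean level of each of the 34 genes in the shMETTL3 libraries (vertical) against the vector libraries (horizontal), in TMM-scaled CPM per kilobase of the canonical transcript on log axes, with error bars of 1 SD (n = 3) and colours by group of genes. Most points lie on or below the dotted line of a 2-fold lower level, while NSDHL, MBTPS1 and INSIG2 lie above the line of equal levels.

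Ratios of counts within a library do not depend on scaling between libraries. The ratio of INSIG1 to INSIG2 counts was 7.07, 7.89 and 8.70 in vector replicates 1 to 3 and 1.30, 1.57 and 1.85 in shMETTL3 replicates 1 to 3, a difference of -2.34 on the log2 scale. SREBF1 had more counts than SREBF2 in each vector library, with ratios of 1.05, 1.14 and 1.18, and fewer in each shMETTL3 library, with ratios of 0.842, 0.869 and 0.848. The ratio of ACACA to FASN went the other way, from 0.670, 0.677 and 0.611 to 0.917, 1.004 and 0.917. That of FADS1 to FADS2 moved little, from 2.15, 2.098 and 1.98 to 2.22, 2.25 and 2.21, a log2 difference of 0.099 against an SD of 0.061 among vector libraries. For each of the 4 ratios the groups did not overlap, and an exact permutation test (two-sided) gave p = 0.1 (0.1 after Benjamini-Hochberg adjustment over the 4), the smallest that 3 libraries against 3 allow, so that no ratio could reach 0.05.

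**Figure D4:**
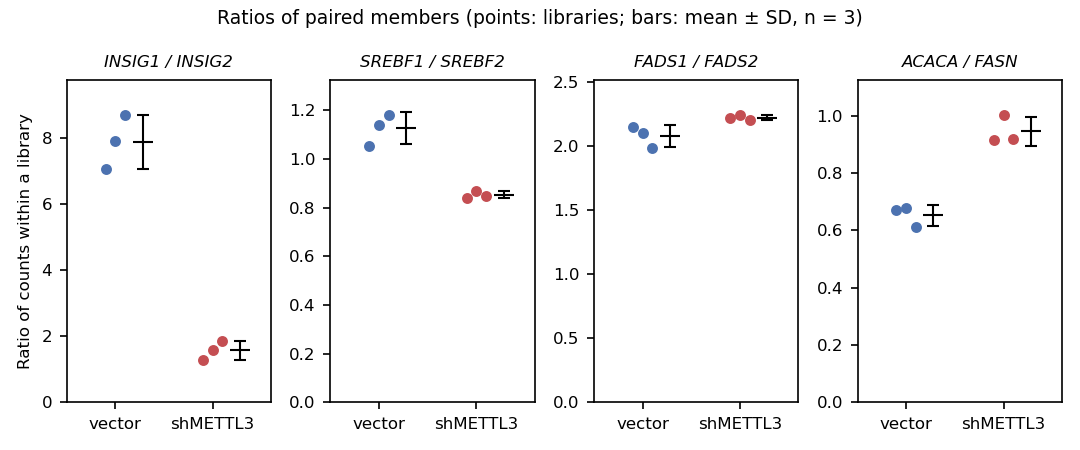
Ratio of the counts of paired members within each library (vertical, linear from 0) for vector (blue) and shMETTL3 (red) libraries, with the mean ± SD (n = 3) beside the points. The ratio of INSIG1 to INSIG2 falls from 7.89 to 1.57 on average, and that of FADS1 to FADS2 stays between 1.98 and 2.25.

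The lipid pathways around these genes held both lower and higher genes, and their counts are to be read against the 32.9% of all tested genes that were lower and the 33.7% that were higher. Of 15 genes of sterol feedback and use, 7 were lower and 6 higher, with a median log2 fold change of 0.052, and with scaling by library size alone 4 were lower and 8 higher, with a median of 0.23. SOAT1, which esterifies cholesterol for storage, was the lowest of them, at 252, 239 and 224 CPM in the vector libraries and 109, 105 and 109 CPM in the shMETTL3 libraries (log2 fold change -1.15, standard error 0.054, adjusted p = 1.21e-16). The highest was MBTPS2, the protease of the other cut in SREBPs and another gene of chromosome X, with a log2 fold change of 1.01 (standard error 0.060, adjusted p = 2.76e-14). Among 13 genes that carry isoprenoids into ubiquinone, dolichol and protein prenylation, 3 (23.1%) were lower and 5 (38.5%) higher, both near those shares, from -0.55 for COQ2 (adjusted p = 2.09e-05), a ubiquinone enzyme, to 0.60 for GGPS1 (adjusted p = 2.37e-07), which makes geranylgeranyl diphosphate from the product of FDPS. Their median of -0.074 turned to 0.10 with scaling by library size alone, with 1 lower and 5 higher.

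Of 18 genes of fatty acid activation, elongation and supply, 8 were lower and 7 higher, and their median of -0.015 turned to 0.16 with scaling by library size alone. SLC25A1, the mitochondrial citrate carrier upstream of ACLY, was lowest, with a log2 fold change of -1.01 (standard error 0.064, adjusted p = 1.04e-13). SCD5, a second stearoyl-CoA desaturase, was highest, with 6.24, 5.99 and 5.15 CPM in the vector libraries and 17.6, 18.6 and 19.1 CPM in the shMETTL3 libraries (log2 fold change 1.66, standard error 0.11, adjusted p = 1.42e-13). It rose where SCD fell, but reached far fewer counts, at 6.06 CPM per kb against 102 CPM per kb for SCD in the shMETTL3 libraries.

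Of 14 tested genes of glycerolipid synthesis and storage, 8 were higher and 3 lower, with a median of 0.26, while AGPAT1 had too few counts to be tested. With scaling by library size alone 9 were higher and 2 lower, with a median of 0.44. PLIN2, which coats lipid droplets, was at 8.08, 8.44 and 7.23 CPM in the vector libraries and at 63.4, 60.0 and 63.4 CPM in the shMETTL3 libraries, 7.86-fold higher (log2 fold change 2.97, standard error 0.079, adjusted p = 6.00e-22). The lowest was MLXIPL, which encodes the carbohydrate-responsive activator ChREBP, with 8.52, 7.30 and 10.7 CPM against 2.74, 2.84 and 2.52 CPM (log2 fold change -1.70, standard error 0.16, adjusted p = 4.32e-10). Fatty acid oxidation genes changed by small amounts, 12 of 15 lower and 1 higher with a median of -0.23, from -0.78 for ECI1 (adjusted p = 2.09e-11), an enoyl-CoA isomerase, to 0.37 for ACAA2 (adjusted p = 1.83e-05), a thiolase. With scaling by library size alone only 3 of them were lower and 3 higher, with a median of -0.058.

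**Figure D5:**
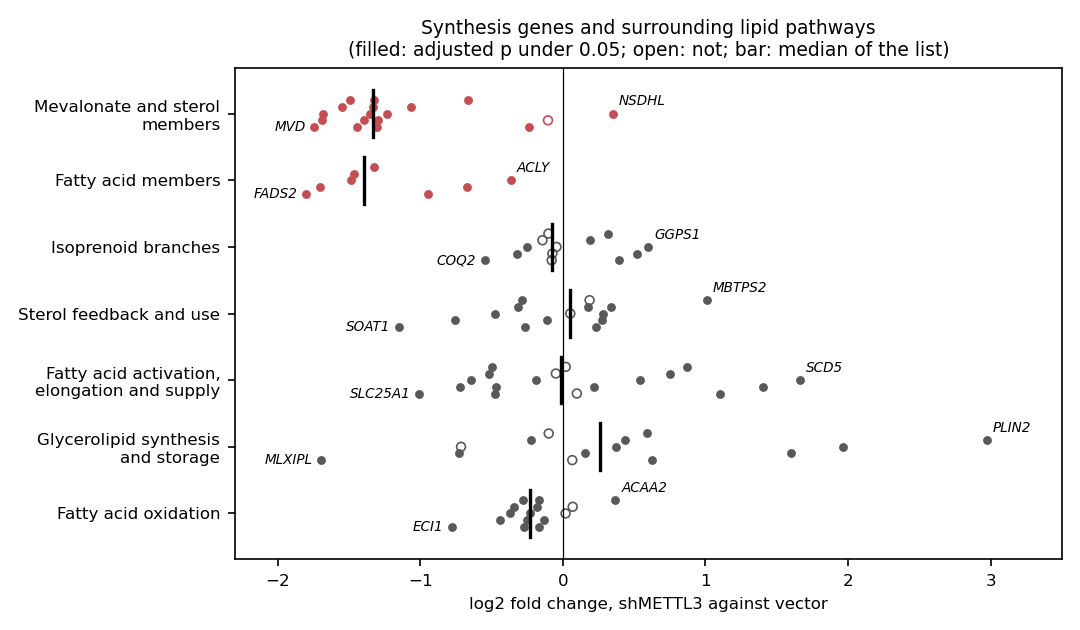
Log2 fold change (shMETTL3 against vector, horizontal axis) of each tested gene in the sterol and fatty acid branches (red) and in 5 lists of neighbouring lipid pathways (grey), with filled points for an adjusted p under 0.05, open points for the others, and a bar at each median. Medians lie at -1.33 and -1.39 for the branches and between -0.23 and 0.26 for the other lists, with PLIN2 farthest to the right at 2.97.

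Some counts rest on shared sequence. In GENCODE annotation of GRCh37, 18 of the 34 genes share exon bases with another gene, and 5 (FDPS, CYP51A1, HSD17B7, FADS2 and SCD) have pseudogenes among the rows of the table. For genes with a neighbour on the opposite strand, such as ACAT2 with 22.2% and HMGCS1 with 37.7% of their exon bases shared, the counts depend on the strand setting, which is not stated. Of the 16 members that share no exon bases, 11 were lower, 3 were higher (NSDHL, INSIG2 and MBTPS1) and 2 did not pass the test (SC5D and SCAP), with a median log2 fold change of -1.30.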

How the data were processed

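RNA from 3 vector and 3 shMETTL3 A549 libraries was sequenced. The authors mapped reads to hg19 with HISAT2, counted them per gene with HTSeq and deposited raw counts, without normalization. The submitters' processing notes name cutadapt 3.0, HISAT2 2.2.1, SAMtools 1.13 and HTSeq 0.13.5, while the paper names older versions of HISAT2 and HTSeq. Annotation and strand setting are not given in the sources used here.

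Counts were tested in R 4.3.3 with edgeR 4.0.16 (TMM, filterByExpr, glmQLFit and glmQLFTest, group only), and p-values were adjusted by Benjamini-Hochberg across all 15125 tested genes. Each standard error is the unshrunk log2 coefficient divided by the square root of F. On simulated counts with genes changed 2-fold, 177 of 190 changed genes were recovered, with 11 false calls among 14805 genes. The simulation changed few genes, whereas 66.6% of tested genes were changed in the data. It therefore does not check the scaling or the calls under such a background. Alternatives were RLE, upper-quartile and no scaling, other filters, DESeq2 1.42.0, voom from limma 3.58.1, a replicate block, a stricter threshold, and each library left out. Replicates differed by more than sampling noise, with a chi-square per degree of freedom of at least 2.79.

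Members and lists were chosen with earlier results of these data known. Described in full were the 2 lowest and 2 highest called members of each list, the genes in ratios and those on chromosome X. Of each surrounding list, the lowest and highest called gene was named. Lengths and positions came from GENCODE on GRCh37, the build behind hg19. Promoters came from RefSeq on GRCh38.p14. Depth limits cover counting error only.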

Additional observations from a re-analysis of the deposited data

How the results depend on the processing

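Counts of changed members held within 1.5 times under every alternative: 30 to 33 of 34 members were changed, 30 with scaling by library size alone and 33 without vector replicate 1. Of the 510 refitted log2 fold changes of members, 505 kept their direction and side of the threshold. The exceptions were SC5D and SCAP, which turned to 0.069 and 0.080 with scaling by library size alone, EBP and LPIN1, which lost their calls there, and SCAP, which gained one without vector replicate 1. Changed genes of fatty acid oxidation numbered 13, but 6 with scaling by library size alone and 8 at an adjusted p under 0.01. With scaling by library size alone the median log2 fold change of these genes moved from -0.23 to -0.058, beside a shift of 0.17 over all tested genes. The cause of the lower count was not tested. The count at an adjusted p under 0.01 comes from a stricter limit on the same fit. Over all tested genes, 10067 were changed and 50.6% of them higher, against 65.8% with scaling by library size alone. METTL3 stayed between -1.38 and -1.19 on the log2 scale, called in each fit. The replicate block gave 32 changed members, 29 of them lower, and 10111 changed genes. Deviations of same-numbered libraries correlated at 0.069, -0.024 and 0.039, not every library correlated best with its own number, and the numbers were not treated as pairs. Depth limits CYP51A1 most, with 28 counts in its lowest library.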
